A study of Cicer arietinum with 24 samples.

Results

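The expression of 6 genes encoding DNA demethylases was followed in leaf and developing seeds of chickpea (Cicer arietinum, cultivar JGK 3, large-seeded and field-grown). The genes Ca_17547, Ca_20137, Ca_08414, Ca_17326, Ca_17329 and Ca_07031 are those that the study assigned to this family by a search of the gene annotation, and they are 6 of 28269 gene identifiers in the tables. The membership was not checked here by sequence, since none of the 6 identifiers matched the RefSeq gene table (0 matches). RNA had been sequenced from leaf of mature plants, taken during mid-maturation of the seeds, and from whole seeds at 7 stages. The study names S1, S2 and S3 as early-, mid- and late-embryogenesis, S5 as mid-maturation and S7 as late-maturation, whereas S4 and S6 are given only as numbered stages. The labels name no transgene or treatment. Each of the 8 groups had 3 samples, but the deposited tables held a single value per gene and group in FPKM, the number of fragments scaled by exon length and by the size of the library. Therefore no spread between replicates, standard error or p-value could be computed, and all differences describe pooled libraries. The number of reads behind a value was unknown.

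DNA demethylases of plants are DNA glycosylases that cut methylated cytosine out of DNA, after which base excision repair fills the gap with an unmethylated base. They act against the DNA methyltransferases, which set and maintain the mark in the CG, CHG and CHH contexts. In Arabidopsis, DEMETER is active in the central cell before fertilisation and is needed for imprinted expression in the endosperm, while ROS1 and the DEMETER-like enzymes act in other tissues. Which of these classes each chickpea gene belongs to was not given, so the genes are described by identifier only. Leaf and whole seeds are mixtures of cell types, and in such bulk samples fewer cells of a type and less RNA per cell cannot be told apart.

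The 6 identifiers occupied 8 entries of the tables. Ca_20137 and Ca_08414 each had a pair of entries, called first-listed and second-listed below by their order, and the other 4 genes had 1 entry each. Across genes, FPKM values can be compared because they are normalised by length. Where a repeated gene is given by 1 value, the entry with the highest mean over the 8 groups is meant, which was the first-listed entry for both genes. The choice was narrow for Ca_08414, with means of 3.12 FPKM and 2.98 FPKM, and wider for Ca_20137, with means of 14.5 FPKM and 10.1 FPKM.

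Ca_17547 was the most highly expressed demethylase gene by this measure. It had 3.18 FPKM in leaf, 21.4 FPKM at S1, 19.9 FPKM at S2, 22.4 FPKM at S3, 43.8 FPKM at S4, 49.0 FPKM at S5, 18.9 FPKM at S6 and 17.6 FPKM at S7. The values thus lay on a plateau during embryogenesis, were near double that level at S4 and S5, and were back at or under the plateau at the last stages, with leaf under every seed stage. Its rank among all entries that name a gene, which does not depend on how libraries are scaled, followed the same course. In leaf 52.2% of the entries had a lower FPKM than Ca_17547, against 76.7% at S1, 87.5% at S4, 87.7% at S5 and 73.3% at S7.

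Ca_20137 had a steadier course in its first-listed entry. This entry had 1.56 FPKM in leaf, 14.3 FPKM at S1, 16.3 FPKM at S2 and at S3, 17.0 FPKM at S4, 21.0 FPKM at S5, 17.3 FPKM at S6 and 12.0 FPKM at S7. As deposited, the highest seed value exceeded the lowest by only 1.74 times. Of the 18740 entries that reached 1 FPKM in seeds, 94.0% had a range as large or larger on the log2(FPKM + 1) scale. This steadiness depended on the scaling. With libraries scaled to the same sum, the first-listed entry was highest at S2 and changed by -1.02 from S5 to S6 on that scale. The second-listed entry of the same identifier behaved otherwise. It had 10.6 FPKM in leaf, 1.99 FPKM at S1, 0.981 FPKM at S2, 0.810 FPKM at S3 and 0.137 FPKM at S4. At S5 it was listed at 0, whereas at S6 and S7 it reached 32.0 FPKM and 33.9 FPKM. Hence the first-listed entry was the higher in S1 to S5, and the second-listed entry was the higher in leaf, S6 and S7.

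Whether such a switch is common among repeated identifiers was examined in all 1149 identifiers with exactly 2 entries. Between S5 and S6, 555 of them had entries at least 2-fold apart at both stages, and in 47 of these (8.47%) the other entry became the higher one. Ca_20137 is not among them, since its second-listed entry exceeded the first-listed one by 1.85 times at S6. The same count was 0 of 698 between S6 and S7 and 2 of 778 between S1 and S2. It was 27 of 644 between S3 and S4, where Ca_20137 kept its order. Between leaf and S1 the count was 10 of 709, and between leaf and S4 it was 36 of 609. The highest share was between leaf and S5, with 60 of 584 (10.3%). Ca_20137 is among the counted identifiers in each of these comparisons with leaf, at S5 by an entry listed at 0. Its second-listed entry was 6.77 times the first-listed one in leaf. The first-listed entry was 7.19 times the second-listed one at S1 and 124 times at S4. The tables carry no locus beside the identifier, so that it cannot be told whether the 2 entries are separate transcripts or loci, nor whether their order was kept in every table. The sum of both entries does not depend on that order, and it was 12.2 FPKM in leaf, between 16.3 and 21.0 FPKM from S1 to S5, 49.3 FPKM at S6 and 46.0 FPKM at S7.

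Ca_08414 was expressed at low levels in all groups. Its first-listed entry had 1.63 FPKM in leaf, 3.47 FPKM at S1, 3.24 FPKM at S2, 4.44 FPKM at S3, 3.22 FPKM at S4, 2.08 FPKM at S5, 3.41 FPKM at S6 and 3.47 FPKM at S7. As deposited, this entry had its lowest seed value at S5, the stage at which 4 of the other genes were highest, whereas the second-listed entry was lowest at S3. With libraries scaled to the same sum, the first-listed entry was lower at S6 than at S5, by -0.07 in log2(FPKM + 1). Under that scaling only Ca_17326 and Ca_17329 were highest at S5. The second-listed entry had 1.75 FPKM in leaf, 2.53 FPKM at S1, 2.13 FPKM at S2, 1.90 FPKM at S3, 3.18 FPKM at S4, 2.46 FPKM at S5, 5.19 FPKM at S6 and 4.73 FPKM at S7. It was lower than the first-listed entry during embryogenesis, with 0.428 times its value at S3, nearly equal at S4 (0.989 times), and higher at S6 (1.52 times).

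Ca_17326 and Ca_17329 were under 1 FPKM up to S3 and higher from S4 on. Ca_17326 had 0.352 FPKM in leaf, 0.584 FPKM at S1, 0.382 FPKM at S2, 0.334 FPKM at S3, 1.12 FPKM at S4, 4.96 FPKM at S5, 7.29 FPKM at S6 and 4.11 FPKM at S7. Ca_17329 had 0.378 FPKM in leaf, 0.973 FPKM at S1, 0.250 FPKM at S2, 0.330 FPKM at S3, 1.50 FPKM at S4, 5.44 FPKM at S5, 3.93 FPKM at S6 and 2.13 FPKM at S7. Both genes exceeded their lowest seed value by 21.8 times at their highest, the widest ratio among the demethylase entries above 0 at every stage. They differed in when they were highest, S6 for Ca_17326 and S5 for Ca_17329. Within a library their ratio, which is free of scaling, was between 0.600 and 1.53 up to S5, and Ca_17326 exceeded Ca_17329 by 1.85 times at S6 and 1.92 times at S7.

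The identifiers Ca_17327 and Ca_17328 lie between this pair in the numbering. Ca_17328 was listed at 0 in every group. Ca_17327 had a pair of entries, of which the higher had 26.0 FPKM in leaf, 3.73 FPKM at S1, 11.0 FPKM at S3, 30.1 FPKM at S4, 35.9 FPKM at S5 and 32.0 FPKM at S7. It was also higher at S4 and S5 than before, but unlike both demethylase genes it was high in leaf. Whether Ca_17326 and Ca_17329 are similar enough in sequence to share reads was not tested.

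Ca_07031 was the lowest member. It had 0.371 FPKM in leaf, 0.126 FPKM at S1, 0.199 FPKM at S2, 0.311 FPKM at S3, 1.05 FPKM at S4, 1.41 FPKM at S5 and 0.0165 FPKM at S7, and it was listed at 0 at S6. Only S4 and S5 reached 1 FPKM, the minimum used here to call a difference. No ratio is given against the 0, which may mark a missing estimate in place of a measured absence, and a log2(FPKM + 1) difference that involves it carries the same doubt.

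**Figure D1:**
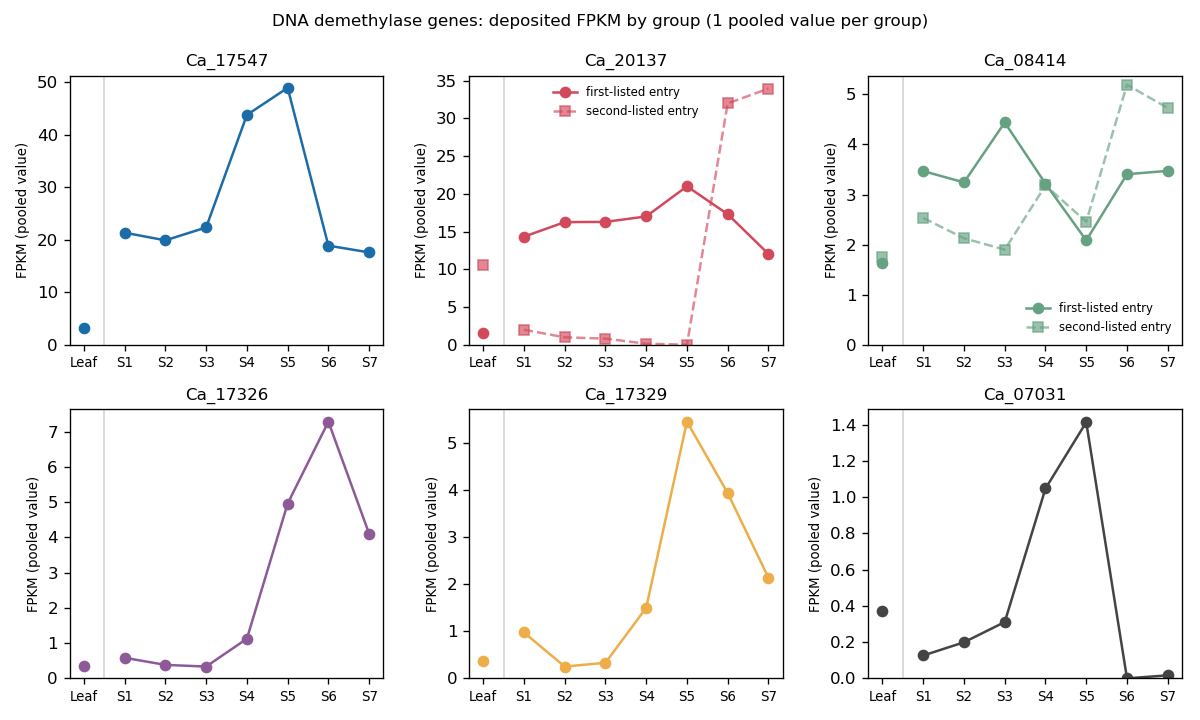
Deposited FPKM (vertical axis, own scale in each panel) of the 6 demethylase genes in leaf and the 7 seed stages (horizontal axis), 1 pooled value per group and no error bars, with both entries where an identifier is repeated. Ca_17547 peaks at S4 and S5 (43.8 and 49.0 FPKM), Ca_17326 and Ca_17329 are higher after S3, and the second-listed entry of Ca_20137 goes from a value listed at 0 at S5 to 32.0 FPKM at S6.

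To follow the genes step by step, a gene was counted as apart when its log2(FPKM + 1) differed by at least 1 (2-fold), with at least 1 FPKM at either stage. The same rule was applied to all entries that name a gene, and their share apart is given as the background. This scale understates the change of genes with low values. During the S1/S2 transition the 6 genes showed no difference of this size in either direction (0 genes). Only Ca_17547, Ca_20137 and Ca_08414 reached the minimum, with changes of -0.10, 0.17 and -0.07, against 14.4% of all tested entries apart. Ca_17329 went from 0.973 to 0.250 FPKM, below the minimum at both stages. During S2/S3 again 0 of the 3 genes with enough expression were apart, with changes of 0.16, 0.00 and 0.36 in the same order and 11.6% of entries apart. At both steps these 3 genes were thus under the limit, as most tested entries were. The second-listed entry of Ca_20137 went from 1.99 to 0.981 FPKM at S1/S2, a change of -0.59.

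Between S3 and S4 all 6 genes reached the minimum. None passed the limit (0 genes), while 8.81% of tested entries were higher and 6.87% lower at S4. However, 4 genes lay not far under it. Ca_17547 was higher at S4 by 0.94, Ca_17329 by 0.91, Ca_17326 by 0.67 and Ca_07031 by 0.64 on the log2(FPKM + 1) scale, and 9.85%, 10.5%, 16.2% and 17.1% of the tested entries were higher at S4 by as much or more. Without the added 1, FPKM was 1.96 times higher at S4 for Ca_17547, 4.53 times for Ca_17329, 3.36 times for Ca_17326 and 3.37 times for Ca_07031. With an added 0.1 in place of 1, the last 3 genes passed the limit. Ca_20137 and Ca_08414 had changes of 0.06 and -0.37 in their first-listed entries. The direction of both depended on the entry, with changes of -0.67 and 0.53 in the second-listed entries and of 0.00 and 0.01 in the sums. The median change of the 6 genes was 0.66, against -0.01 for all tested entries.

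Between S4 and S5 Ca_17326 and Ca_17329 were higher at S5, by 1.49 and 1.37, so that 2 of 6 genes were apart. The share of entries higher at S5 was 8.71%. None was lower (0 genes, against 10.5% of entries), and 4.33% and 4.94% of all tested entries were higher by as much or more as these genes. The other 4 genes had changes of 0.16 for Ca_17547, 0.29 for Ca_20137, 0.24 for Ca_07031 and -0.45 for Ca_08414. With libraries scaled to the same sum the first 3 of these were -0.27, -0.13 and 0.00, so their direction at this step depended on the scaling. On this scale the larger part of the difference of Ca_17547 between S3 and S5 thus lay before S4, whereas that of Ca_17326 and Ca_17329 lay after it. In plain FPKM Ca_17326 was 4.41 times higher at S5 than at S4 and Ca_17329 3.64 times, which for Ca_17329 is less than its ratio at S3/S4. With S4 left out, 3 genes were higher at S5 than at S3, Ca_17547 by 1.10, Ca_17326 by 2.16 and Ca_17329 by 2.28, with 16.8% of entries higher. The count between S4 and S5 was 0 with an added 5 in place of 1 and 0 with a 4-fold limit.

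Between S5 and S6 the members differed in direction as deposited, but not under every scaling. Ca_17547 was lower at S6, with a change of -1.33, and Ca_07031 was lower, with a change of -1.27 to a value listed at 0. Without Ca_07031, whose call rests on that 0, the count is 1. These 2 of 6 genes compare with 30.3% of entries lower at S6, and none was higher (0 genes, against 26.1% of entries). Of all tested entries, 24.2% were lower by as much as Ca_17547 or more. The changes were -0.26 for the first-listed entry of Ca_20137, -0.39 for Ca_17329, 0.48 for Ca_17326 and 0.51 for Ca_08414. The second-listed entry of Ca_20137 was higher at S6 by 5.04 from a value listed at 0, and only 0.980% of tested entries were higher by as much. The direction of Ca_20137 at this step therefore depended on the entry, and the sum of its entries was higher at S6 by 1.19. Scaled to the same sum, all tested entries shifted by a median of -0.76 at this step and the first-listed entry was lower at S6 by more than the limit (-1.02). All 6 genes were then lower at S6, with -0.07 for Ca_08414 and -0.22 for Ca_17326, and with the same upper quartile the changes of these genes were 0.10 and -0.01.

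Between S6 and S7 the demethylase genes again showed no difference past the limit (0 of 5 genes with enough expression), where 5.11% of all tested entries were apart. Ca_17326 and Ca_17329 were lower at S7 in nearly equal measure, with changes of -0.70 and -0.65. Although under the limit, these changes were large for this step, since 6.94% and 7.63% of tested entries were lower by as much or more. The first-listed entry of Ca_20137 followed with -0.49 (11.6% of entries), and Ca_17547, Ca_08414 and Ca_07031 had changes of -0.10, 0.02 and 0.02. The direction of Ca_20137 and Ca_08414 depended on the entry. Their second-listed entries had changes of 0.08 and -0.11, and their sums of -0.10 and -0.06.

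**Figure D2:**
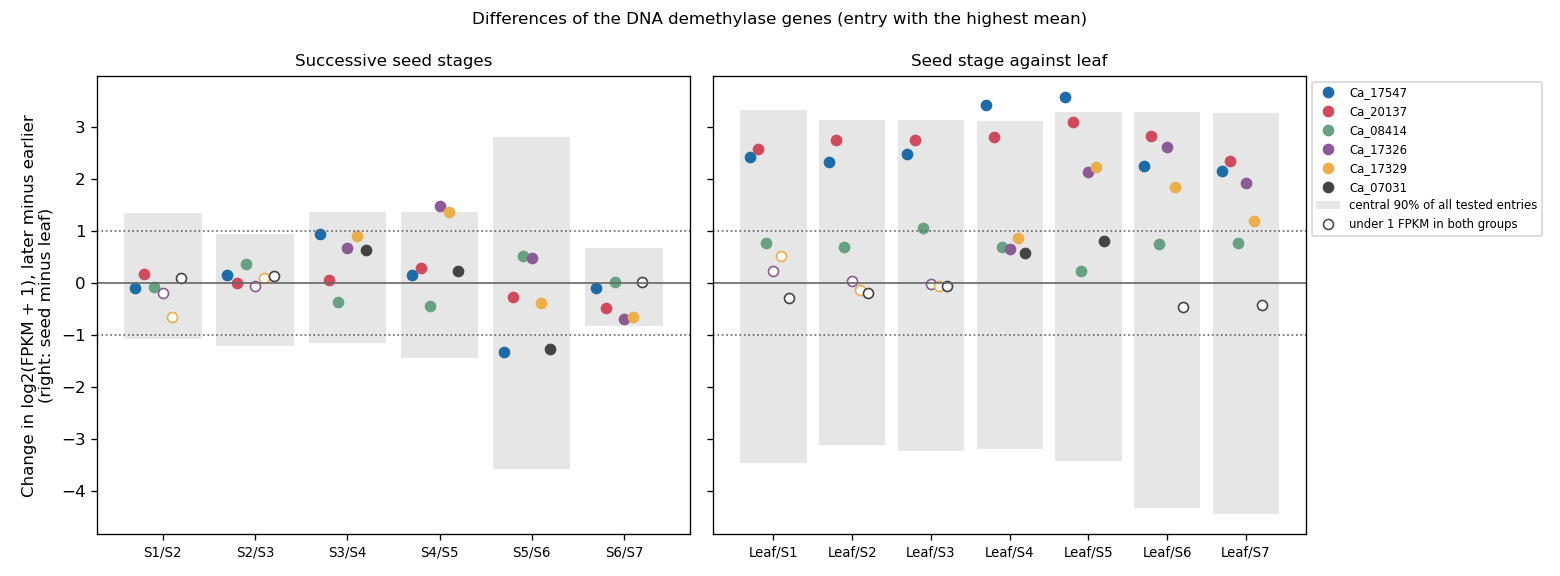
Change in log2(FPKM + 1) of each demethylase gene (vertical axis) at the 6 successive steps (left) and of each seed stage against leaf (right). Dotted lines mark the limit of 1, grey bands hold the central 90% of all tested entries, and open points had under 1 FPKM in both groups. At S4/S5 Ca_17326 (1.49) and Ca_17329 (1.37) lie above the limit, at S5/S6 Ca_17547 (-1.33) and Ca_07031 (-1.27, listed at 0 at S6) lie below it, and no other point on the left passes it.

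Seed stages were next compared with leaf, the vegetative tissue of the study. Ca_17547 and the first-listed entry of Ca_20137 were at least 2-fold higher than leaf at all 7 stages, which held for 4.30% of the 19168 entries with at least 1 FPKM in any group. No demethylase gene was lower than leaf at all stages (0 genes, against 11.3% of entries). For Ca_17547 the difference from leaf was smallest at S7 (2.15) and largest at S5 (3.58), and for Ca_20137 it was also smallest at S7 (2.35) and largest at S5 (3.10). Under the same sum, the same upper quartile and the median ratio as scalings, both genes were higher at all stages. The second-listed entry of Ca_20137 instead had differences from leaf of -1.95 at S1 and -3.35 at S4, was listed at 0 at S5, and was higher than leaf by 1.51 at S6 and 1.59 at S7. When its entries were summed, only Ca_17547 was higher than leaf throughout.

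Ca_17326 and Ca_17329 passed the limit against leaf only from S5 on, but up to S3 they were under the minimum and could not be called. At S1 their plain FPKM was 1.66 and 2.57 times that of leaf. Ca_17326 and Ca_17329 had values similar to leaf at S2 and S3. At S4 they differed by 0.65 and 0.86, under the limit, while their plain FPKM was 3.19 and 3.96 times that of leaf. Both were higher than leaf at S5 (2.14 and 2.23), S6 (2.62 and 1.84) and S7 (1.92 and 1.19). At S5 4 of 6 genes were higher than leaf (28.1% of tested entries), and at S6 and S7 4 of the 5 genes with enough expression were (30.2% and 30.8%). The second-listed entry of Ca_08414 also passed the limit at S6 (1.17) and S7 (1.06). With entries summed, 3 of 6 genes were higher than leaf at S5 and 5 of 5 at S6 and S7. At S1 and S2 2 of the 3 genes with enough expression were higher than leaf, with backgrounds of 27.4% and 25.8%. At S3 all 3 were (26.1%), as Ca_08414 passed the limit there (1.05), but only by its first-listed entry. At S4 2 of 6 genes were higher (27.9%). Ca_07031 reached the minimum only at S4 and S5, so no other stage could be called. Its differences from leaf there were 0.58 and 0.82, under the limit, while its plain FPKM was 2.83 and 3.81 times that of leaf.

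The summed FPKM of the 6 genes was 7.47 in leaf, 40.8 at S1, 40.2 at S2, 44.1 at S3, 67.7 at S4, 83.9 at S5, 50.8 at S6 and 39.4 at S7. The order of S4 and S5 depended on the scaling, since the ratio of S5 to S4 was 1.24 as deposited and 0.914 with libraries set to the same sum. So did the place of the last stages, since the total at S6 was 1.25 times that at S1 as deposited, 0.513 times with the same sum and 0.796 times with the same upper quartile. Ca_17547 carried the largest part in every group, between 37.2% at S6 and 64.7% at S4, with 42.6% in leaf, 52.3% at S1, 58.4% at S5 and 44.7% at S7. Together with Ca_20137 it held 89.8% of the total at S4 and 71.2% at S6, where Ca_17326 had come to 14.3%. In leaf, Ca_08414 made up 21.8% and Ca_20137 20.9%. These shares are ratios within a library and do not depend on scaling, but they did depend on the entries. With entries summed, Ca_20137 led in leaf (61.3%), S6 (56.0%) and S7 (58.9%), and Ca_17547 led from S1 (47.1%) to S5 (56.7%). The family total was then 19.8 in leaf, 86.3 at S5, 88.0 at S6 and 78.0 at S7, so that as deposited the decline after S5 seen with 1 entry per gene was absent at S6. With the same sum the summed entries were lower at S6 (0.800 times the total at S1) than at S5 (1.39 times).

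**Figure D3:**
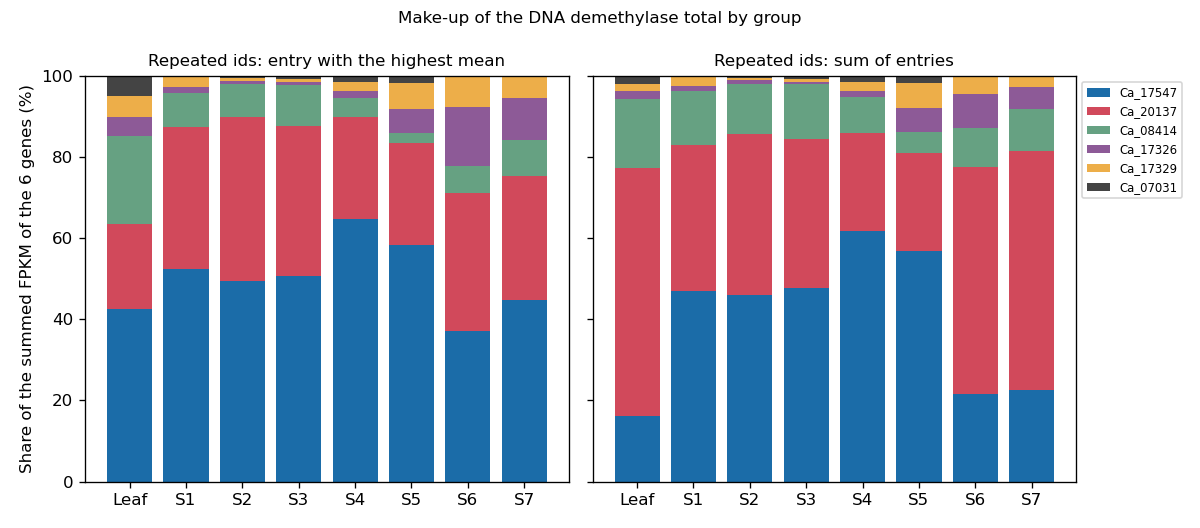
Share of each gene in the summed FPKM of the 6 demethylase genes (vertical axis, percent) in leaf and the 7 seed stages, with the entry of highest mean (left) and with the entries of a repeated identifier summed (right). On the left Ca_17547 is largest in each group, up to 64.7% at S4, and on the right Ca_20137 is largest in leaf (61.3%), S6 (56.0%) and S7 (58.9%).

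The stage of highest expression was S5 for 4 of the 6 genes (Ca_17547, Ca_20137, Ca_17329 and Ca_07031), S3 for Ca_08414 and S6 for Ca_17326. Of all 18740 entries expressed in seeds, 15.5% were highest at S5. Scaling to the same upper quartile put 5 genes at S5, whereas scaling to the same sum left only Ca_17326 and Ca_17329 there and placed Ca_17547 and Ca_07031 at S4 and Ca_20137 at S2. With entries summed, 3 genes were highest at S5 and 3 at S6.

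Over the 8 groups, the profiles of log2(FPKM + 1) were alike in some pairs of genes, but Ca_08414 and Ca_07031 had no close partner. The entries of Ca_20137 had a Pearson's r of -0.38 with each other. Pearson's r was 0.94 between Ca_17326 and Ca_17329 and 0.92 between Ca_17547 and Ca_20137 (first-listed entry), while Ca_08414 had its highest r with Ca_20137 (0.64) and Ca_07031 with Ca_17547 (0.49). The points are 8 pooled libraries shared by all genes, so these values are descriptions. Ca_17547 and the first-listed entry of Ca_20137 both had their lowest value in leaf (3.18 FPKM and 1.56 FPKM). Their r over the seed stages alone was not computed, and at S3/S4 their changes were 0.94 and 0.06. Among 16921 entries above 0 in all groups, the profile most like Ca_17547 was that of Ca_05806 (r = 0.993), which had 80.8 FPKM in leaf and 9680 FPKM at S5. For Ca_20137 it was Ca_22331 (r = 0.991), with 0.602 FPKM in leaf and 22.5 FPKM at S5, and for Ca_08414 it was Ca_01001 (r = 0.974). Ca_17326 was most like Ca_21980 (r = 0.987), which went from 0.268 FPKM at S3 to 36.7 FPKM at S6. Ca_17329 was most like Ca_03406 (r = 0.981) and Ca_07031 most like the joint entry of Ca_20785 and Ca_20786 (r = 0.991). How rare such likeness is differed between members, since 117 entries had r of at least 0.95 with Ca_17326 and only 5 with Ca_08414.

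The opposing enzymes were set beside the demethylases at the same steps, using the 6 methyltransferase genes of the study. CaMET1 (Ca_18432) maintains CG methylation, the chromomethylases CaCMT1 (Ca_20580), CaCMT2 (Ca_17866) and CaCMT3 (Ca_23587) belong to a family that acts at CHG and CHH sites, and CaDRM1 (Ca_12577) and CaDRM2 (Ca_03062) belong to the family of the RNA-directed pathway. None of the 6 was called higher at the later stage at any single step (0 genes), where between 1.53% and 26.1% of tested entries were. At S6/S7 only 3 of them reached the minimum. CaCMT1 had 2 entries and is given by the second-listed one. Its first-listed entry went from 0.150 to 1.28 FPKM at S3/S4, a change of 0.99, just under the limit. At the later stage, 2 were lower at S1/S2 (5.79% of entries), 1 at S3/S4 (6.87%), 1 at S4/S5 (10.5%) and 3 at S5/S6 (30.3%). At S4/S5, the step at which 2 demethylase genes were higher, the methyltransferase gene that was lower was CaCMT3. The summed FPKM of the 6 methyltransferase genes was 138 at S1, 77.4 at S2, 64.0 at S5 and 33.9 at S6. The members did not share this course. CaMET1 went from 11.8 FPKM at S1 to 0.309 FPKM at S6, CaCMT1 from 23.2 to 0.833, CaCMT2 from 23.4 to 0.0653 and CaCMT3 from 41.6 to 0.0126. In contrast, CaDRM1 had 14.4 FPKM at S1, 11.2 FPKM at S6 and 13.5 FPKM at S7. CaDRM2 had 24.0 FPKM, 21.5 FPKM and 25.3 FPKM at these stages. Within a library, the ratio of the demethylase to the methyltransferase sum was 0.295 at S1, 0.520 at S2, 0.565 at S3, 0.949 at S4, 1.31 at S5, 1.50 at S6 and 0.970 at S7, with 0.394 in leaf. The ratio was thus higher at each stage than at the one before up to S6 and lower at S7. A higher ratio did not always come with a higher demethylase sum. From S1 to S2 the demethylase sum was 0.985 times and the methyltransferase sum 0.559 times its earlier value. From S5 to S6 these were 0.606 and 0.530 times. With entries summed the ratio followed the same order in seeds, with 0.327 at S1, 2.59 at S6 and 1.92 at S7, but was 1.04 in leaf.

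**Figure D4:**
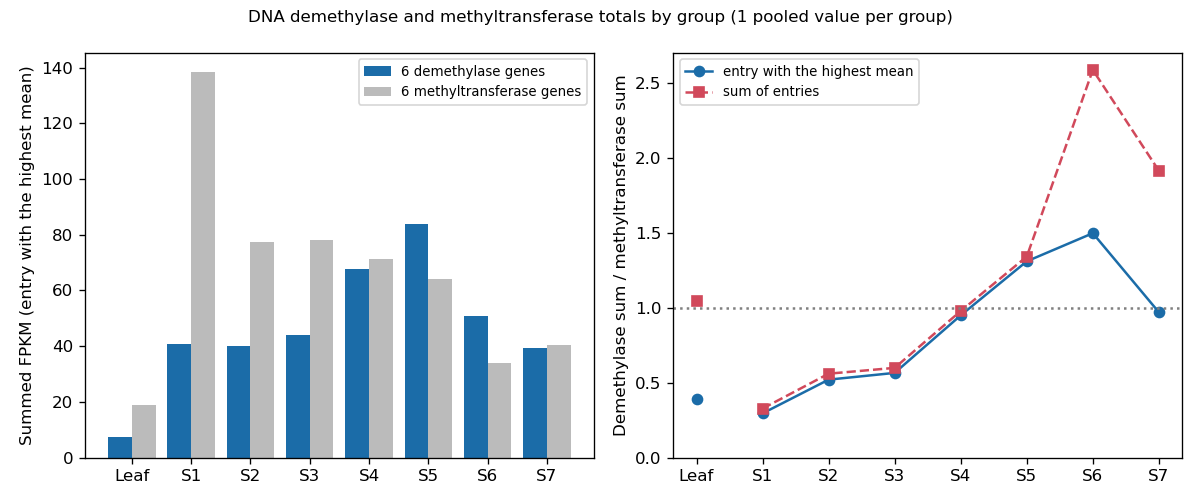
Left, summed FPKM (vertical axis) of the 6 demethylase genes (blue) and the 6 methyltransferase genes (grey) in leaf and the 7 seed stages. Right, the ratio of the sums within each group, with the entry of highest mean (circles) or summed entries (squares), and a dotted line at equality. The ratio is 0.295 at S1 and 1.50 at S6 with the entry of highest mean.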

How the data were processed

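RNA-seq of 24 samples (leaf and 7 seed stages, 3 samples each, grouped by sample title) was used. Per the labels, NGS QC Toolkit was used for read filtering, TopHat for alignment to the annotated genome and Cufflinks for the authors' FPKM values. The deposited FPKM columns held 1 value per group. How the samples were pooled and scaled is not stated, and neither are read numbers. Summed over entries, FPKM ranged from 787865 at S2 to 2.38e+06 at S7. Whole reads could not be recovered, since among entries under 0.1 FPKM in both of 2 groups the commonest ratio was shared by at most 1.75%. Hence the precision of single values is unknown and low values are the least reliable.

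Of 35234 entries, 27966 name a gene and form the background. Differences were taken on log2(FPKM + 1), with a 2-fold limit and at least 1 FPKM in either group. The limma test meant for replicate columns could not be run. The genes named are the 6 demethylase genes, the 6 methyltransferase genes, the 2 identifiers between Ca_17326 and Ca_17329 in the numbering, and for each demethylase gene the entry with the highest Pearson's r. Members, lists and tests were chosen with earlier results of these data known. Alternatives were other pseudocounts, minimums, limits, scalings (same sum, same upper quartile of entries with at least 1 FPKM, median ratio to the geometric mean) and entries. Calculations used Python 3.11.15 with pandas 2.3.3 and numpy 2.4.6 and were tested on simulated data.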

Additional observations from a re-analysis of the deposited data

How the results depend on the processing

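Counts of demethylase genes apart moved by more than 1.5 times under these settings. With a pseudocount of 0.1 the S3 to S4 count was 3 in place of 0. With a pseudocount of 5 the counts were 0 for S4 to S5 and 1 for S5 to S6, in place of 2 each. A minimum of 5 FPKM gave 1 for both steps, and a 4-fold limit gave 0 for both. Scaling to the same sum gave 1 and scaling to the same upper quartile gave 1 for S3 to S4 (Ca_17329). Comparing S3 with S5 directly, chosen after seeing the data, gave 3. The count of 0 for S1 to S2, S2 to S3 and S6 to S7 did not change under any alternative. Settings were changed 1 at a time, so this does not cover members with low values. From S1 to S2 Ca_17329 changed by -1.62 with a pseudocount of 0.1 but was under the minimum. With no minimum and a pseudocount of 1 its change was -0.66. Genes apart from leaf at all stages were 1 in place of 2 when entries of a repeated identifier were summed or the entry with the lower mean was used. The methyltransferase count for S4 to S5 was 2 with a pseudocount of 0.1, and 0 with a pseudocount of 5 or a 4-fold limit, in place of 1. The share of Ca_17547 was 16.0% in leaf, 21.5% at S6 and 22.5% at S7 with summed entries, and 19.1% in leaf, 83.5% at S2, 85.9% at S3 and 28.1% at S7 with the entry of lower mean. The number of genes highest at S5 was 2 in place of 4 with the same sum. The ratio of the summed FPKM of the 6 genes at S5 to that at S4 was 1.24, was between 1.12 and 1.25 under 2 of the scalings and both other entry choices, and was 0.914, a lower total at S5, with the same sum. These changes follow from the construction of the settings, except that the cause was not tested for the scalings. No called value changed direction against the values reported, but Ca_20137 between S5 and S6, not called at -0.26, was called lower with the same sum (-1.02) and higher with summed entries (1.19) or the entry of lower mean (5.04). No paired analysis was possible because the tables hold 1 value per group, and for the same reason no replicate could be left out. Unknown depth limits values under 1 FPKM most.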
